A study of Drosophila melanogaster with 6 samples.

Results

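Johnston's organ is the hearing, gravity and wind organ of the fly and lies in the second antennal segment, next to the third segment, which carries the olfactory sensilla. The 7 genes described here, nan, iav, nompC, nompA, tilB, btv and DCX-EMAP, were listed by FlyBase symbol as channel, cilium and cap genes of that organ, and all 7 were found among the 17753 genes of the count table. RNA sequencing of adult Drosophila melanogaster heads, 50 heads per library, measured them after removal of ribosomal RNA. The flies were 2 to 7 days past eclosion and were kept at 25 °C and 70% relative humidity on cornmeal and agar food. One group is wBerlin, the control stock, and the other is Kdm3 KO, a knockout of the histone demethylase gene Kdm3. Each group has 3 libraries labelled as biological replicates. The sources used here do not state how the allele was made, which sex was taken, or how heads were cut from bodies and checked for antennae. Nothing says whether the replicates came from separate vials, so p-values measure only the spread between these samples.

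Chordotonal neurons such as those of Johnston's organ end in a cilium that is stretched when the antenna moves. The TRPN channel encoded by nompC sits near the tip of the cilium and carries a mechanically gated current, while the TRPV subunits encoded by nan and iav form one channel complex in the proximal cilium. A dendritic cap secreted by a support cell couples the tip to the cuticle, dynein motors give the cilium its motility, and retrograde dynein transport maintains it. Genes such as nompC and nompA also serve bristles, and chordotonal organs also lie in legs, wings and body wall.

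Library totals were 19850981 to 28237382 counts, at which 3 counts equal 0.106 to 0.151 CPM, the count scaled to library size, here with TMM factors. Kdm3 itself was at 28.7 to 32.5 CPM in wBerlin and 0.642 to 3.86 CPM in Kdm3 KO. wBerlin replicate 1 and Kdm3 KO replicate 2 stood apart in ways that touch these genes. The olfactory coreceptor Orco, made by neurons of the third antennal segment and the maxillary palp, was at 6.36 CPM in wBerlin replicate 1 and at 26.5 and 37.0 CPM in replicates 2 and 3. Among the 5476 tested genes with a mean under 5 CPM, Kdm3 KO replicate 2 exceeded the mean of Kdm3 KO replicates 1 and 3 by a median of 1.81-fold, and 84.1% were highest in it among the Kdm3 KO libraries. For the 4864 genes at 5 to 50 CPM the median was 0.903 and the share 19.1%. The test of the 7 genes is therefore given with and without these libraries.

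None of the 7 genes passed the test between genotypes. By edgeR's two-sided quasi-likelihood test with Benjamini-Hochberg adjustment over 14069 genes, 0 of 7 were higher and 0 of 7 lower in Kdm3 KO, where 2.15% of all tested genes were called higher and 0.917% lower at an adjusted p under 0.05. At an unadjusted p under 0.05 there were 2 lower, nompC and nompA (7.51% of all tested genes), and 0 higher (7.14%). None was called by DESeq2, which gave tilB no adjusted p (3.66% of all tested genes higher, 2.91% lower), or by limma voom (1.99% higher, 0.782% lower). For 5 of 7 genes the log2 fold change of Kdm3 KO over wBerlin was below 0, against 43.6% of all tested genes. The median over the 7 was −0.28, against 0.04 over all tested genes. The libraries of the groups overlapped in all 7, where 9.33% of all tested genes were lower and 9.35% higher without overlap.

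The mechanotransduction channel gene nompC (FBgn0016920, arm 2L, 5346200 to 5365760, BDGP6) had control levels of 11.2, 13.9 and 19.6 CPM in replicates 1, 2 and 3. Its knockout levels were 9.70, 13.2 and 9.36 CPM. The highest knockout library thus lay above the lowest control library, and wBerlin replicate 3 stood highest of all. Its log2 fold change was −0.47 (SE 0.21, 95% interval −0.94 to −0.0027, unadjusted p = 0.0489, adjusted p = 0.338 by edgeR's quasi-likelihood test).

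The iav gene (FBgn0086693, arm X, 6813978 to 6818156) codes for a TRPV subunit without which the antennal nerve does not respond to sound. Control levels of iav were 4.02, 6.68 and 6.68 CPM in replicate order, and knockout levels were 2.35, 5.50 and 3.20 CPM. Kdm3 KO replicate 2 lay inside the control range, and the other knockout libraries lay below it. The log2 fold change of −0.66 was the lowest of the 7 (SE 0.32, 95% interval −1.36 to 0.05, edgeR adjusted p = 0.387).

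Its partner nan (FBgn0036414, arm 3L, 14186249 to 14189648) was at 2.01, 3.94 and 3.75 CPM in wBerlin and 2.62, 4.86 and 2.93 CPM in Kdm3 KO, in replicate order. The highest value of all was in Kdm3 KO replicate 2 and the lowest in wBerlin replicate 1. The log2 fold change of nan was 0.10 (SE 0.32, 95% interval −0.62 to 0.82, edgeR adjusted p = 0.924), an interval that spans 0.652- to 1.77-fold.

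**Figure D1:**
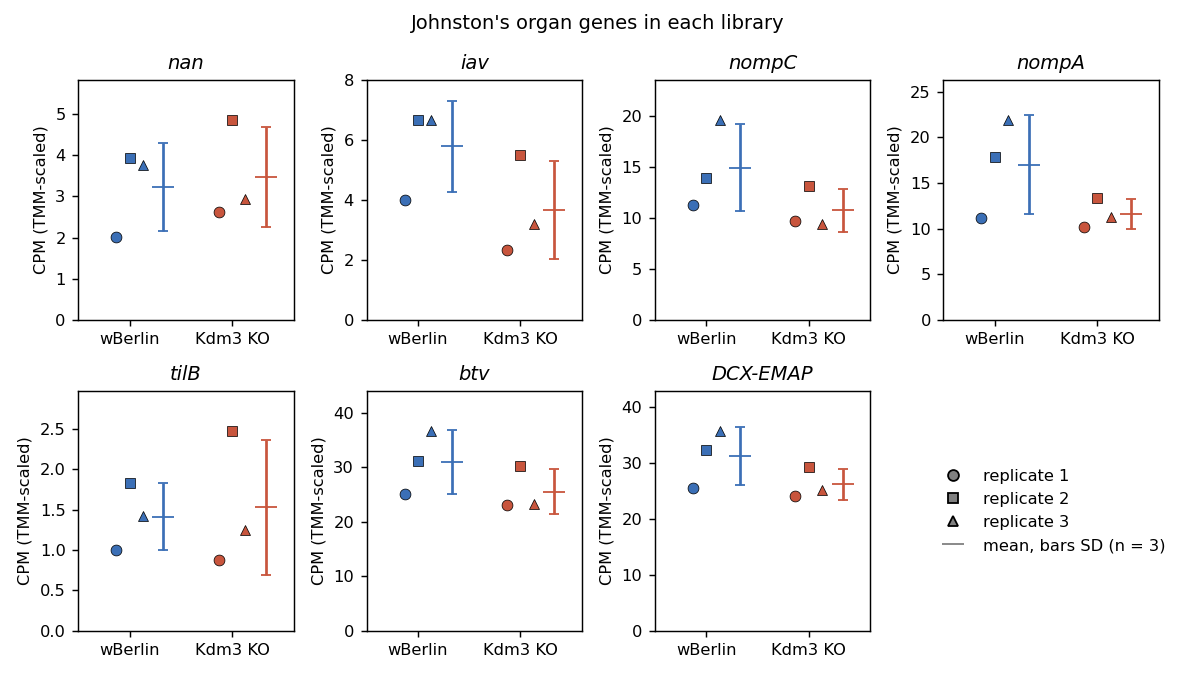
TMM-scaled CPM of each gene in each library (y axis, from 0), with wBerlin in blue and Kdm3 KO in red, marker shape for the replicate, and the mean with SD (n = 3) beside the points. In all 7 panels wBerlin replicate 1 is the lowest control library and Kdm3 KO replicate 2 the highest knockout library.

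The cap gene nompA (FBgn0016047, arm 2R, 11310335 to 11318676) codes for a zona pellucida domain protein of the dendritic cap, the extracellular link between cilium and cuticle. Control levels were 11.2, 17.9 and 21.9 CPM in replicates 1, 2 and 3, and knockout levels were 10.1, 13.4 and 11.2 CPM. Only wBerlin replicate 1 lay within the knockout range. The log2 fold change was −0.55 (SE 0.22, 95% interval −1.05 to −0.06, unadjusted p = 0.0320, edgeR adjusted p = 0.275). Without wBerlin replicate 1 the gene was lower in Kdm3 KO at an adjusted p of 0.0259 with a log2 fold change of −0.83, where 3.24% of all tested genes were called lower and 1.86% higher. It was the 1 member called in any fit that left out a single library.

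The cilium is represented by tilB, btv and DCX-EMAP. The tilB gene (FBgn0014395, arm X, 22449737 to 22451463) encodes a leucine-rich repeat factor for assembly of axonemal dynein arms and is also needed for sperm motility. It was at 1.01, 1.83 and 1.42 CPM in wBerlin and at 0.875, 2.48 and 1.24 CPM in Kdm3 KO, which is 22 to 54 counts per library. With so few counts its interval was the widest of the 7, from −0.86 to 1.07 around a log2 fold change of 0.11 (SE 0.43, edgeR adjusted p = 0.943). Of its 1358 exonic bases 19 are shared with wap on the other strand, and the sources used here do not say whether the counting used strand.

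The btv gene (FBgn0023096, arm 2L, 17962625 to 17982472) encodes the heavy chain of the dynein that drives retrograde transport in cilia. Its level was 25.1, 31.1 and 36.7 CPM in wBerlin and 23.1, 30.3 and 23.3 CPM in Kdm3 KO. DCX-EMAP (FBgn0259099, arm 3L, 14903805 to 14942907), a doublecortin-domain microtubule protein needed for force transduction in chordotonal neurons, was at 25.5, 32.3 and 35.7 CPM in wBerlin and 24.0, 29.2 and 25.2 CPM in Kdm3 KO. In both genes wBerlin replicate 1 lay within the knockout range. Their log2 fold changes were −0.28 (SE 0.16, 95% interval −0.63 to 0.08) for btv and −0.25 (SE 0.14, 95% interval −0.56 to 0.06) for DCX-EMAP, with edgeR adjusted p of 0.491 and 0.465. Reads of btv and DCX-EMAP kept close to 1 ratio, between 0.923 and 1.04 btv counts per DCX-EMAP count in the 6 libraries.

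All 7 genes shared their lowest control library and their highest knockout library, while the order of the other libraries varied. The lowest control library was wBerlin replicate 1 in 7 of 7, against 35.8% of all tested genes, and the highest knockout library was Kdm3 KO replicate 2 in 7 of 7, against 40.2%. The pattern was not particular to the 7. The shares were 91.7% and 91.7% for axonemal dynein and assembly genes and 84.6% and 84.6% for intraflagellar transport, BBSome and transition zone genes. They were 73.2% and 95.1% for third-segment receptors, but 75% and 0% for chordotonal accessory genes. The mean of wBerlin replicates 2 and 3 was 1.33-fold (DCX-EMAP) to 1.91-fold (nan) above replicate 1, with a median of 1.61, against 1.00 over all tested genes. That median was 1.44 for the dynein, 1.49 for the transport, 1.67 for the receptor and 1.045 for the accessory genes. Kdm3 KO replicate 2 exceeded the mean of replicates 1 and 3 by 1.19-fold (DCX-EMAP) to 2.34-fold (tilB). The genes with a mean under 5 CPM, tilB, iav and nan, had the 3 highest values, 2.34, 1.99 and 1.75. Those at 5 to 50 CPM, nompC, btv, nompA and DCX-EMAP, had 1.38, 1.31, 1.25 and 1.19, where genes of that level had a median of 0.903. Across the 6 libraries the standardised log2 levels of the 21 pairs of members had Pearson's r of 0.46 to 0.99, with a median of 0.87. All genes of a library share its depth and tissue composition, so these r values are not separate.

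Without both wBerlin replicate 1 and Kdm3 KO replicate 2, 5 of 7 genes were lower in Kdm3 KO at an adjusted p under 0.05 in edgeR, against 3.39% of all tested genes, and 0 of 7 were higher, against 4.32%. All 7 log2 fold changes were below 0 (50.7% of all tested genes), and all 7 were lower without overlap (27.9%). The omitted libraries were the lowest control and the highest knockout library for each of the 7, so a move to lower values follows from leaving them out and gives no separate support. The log2 fold changes in the 4 libraries were −1.27 for iav (SE 0.18, adjusted p = 0.0141) and −0.90 for nompA (SE 0.13, adjusted p = 0.0152). They were −0.81, −0.55 and −0.46 for nompC, btv and DCX-EMAP (adjusted p 0.0445, 0.0311 and 0.0338). Both nan and tilB had values below 0, −0.47 and −0.63, and did not pass (adjusted p 0.142 and 0.224). Expressed as the mean of Kdm3 KO replicates 1 and 3 over that of wBerlin replicates 2 and 3, the levels were 0.415 for iav, 0.537 for nompA, 0.569 for nompC and 0.653 to 0.724 for the other 4.

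**Figure D2:**
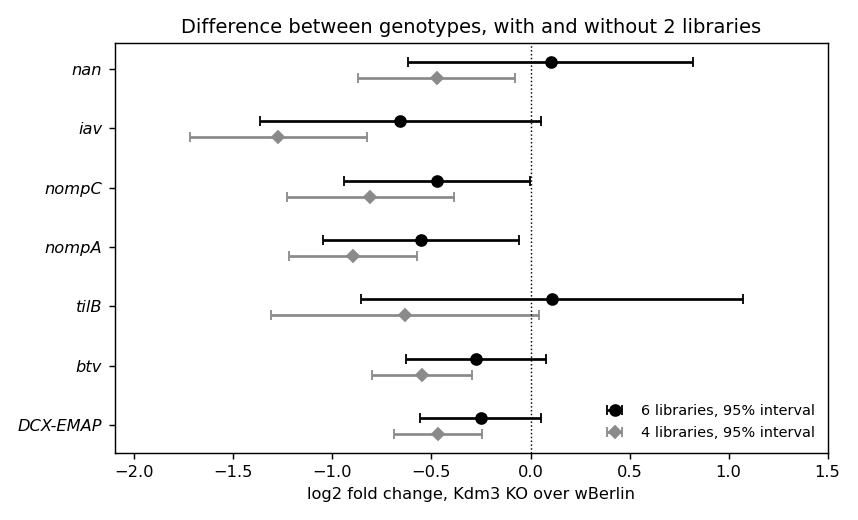
Log2 fold change of Kdm3 KO over wBerlin (x axis) for each gene, with black circles for the fit to 6 libraries and grey diamonds for the 4 libraries without wBerlin replicate 1 and Kdm3 KO replicate 2; bars are 95% intervals, not adjusted over genes. With 6 libraries the values run from −0.66 for iav to 0.11 for tilB, and with 4 libraries from −1.27 for iav to −0.46 for DCX-EMAP.

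Levels can be compared between the genes only per length of exon. In wBerlin DCX-EMAP had the highest level, 6.45 ± 1.07 CPM per kilobase of exon (SD, n = 3), and its lowest library, 5.28, lay above the highest of nompA, 4.19. Below it came nompA at 3.25 ± 1.03, btv at 2.41 ± 0.451 and nompC at 2.17 ± 0.619 CPM per kilobase (SD, n = 3). The lowest levels were those of iav at 1.65 ± 0.437, nan at 1.14 ± 0.373 and tilB at 1.04 ± 0.302 CPM per kilobase (SD, n = 3). From nompA downward each gene's range overlapped that of its neighbour. In Kdm3 KO the first 4 kept this order, at 5.41, 2.21, 1.99 and 1.56, while nan (1.22 ± 0.426) and tilB (1.13 ± 0.618) came above iav (1.05 ± 0.465, SD, n = 3) with overlapping ranges.

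Genes of testis and sperm, which use axonemal dyneins but are not known for a role in the head, gave a reference for low levels. Of 9 such genes, betaTub85D, the tubulin of the sperm axoneme, was the highest, at 1.36 ± 0.128 CPM per kilobase in wBerlin and 1.47 ± 0.333 in Kdm3 KO (SD, n = 3). The genes DCX-EMAP, nompA, btv and nompC lay above the highest testis gene in 6 of 6 libraries. By contrast iav did so in 2 libraries, nan in 1 and tilB in 0, while all 3 lay above the median testis gene in all 6. The summed level of the 9 genes was 14.2 CPM in Kdm3 KO replicate 2 and 6.35 to 7.81 CPM in the other 5 libraries, and 7 of 7 tested genes were highest in that library among the knockouts. Like this sum, tilB and nan were highest of all 6 libraries in Kdm3 KO replicate 2. There iav was highest among the knockouts only, at 5.50 CPM against 6.68 CPM in both wBerlin replicates 2 and 3. The part of this sum in the levels of tilB, nan and iav was not tested.

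**Figure D3:**
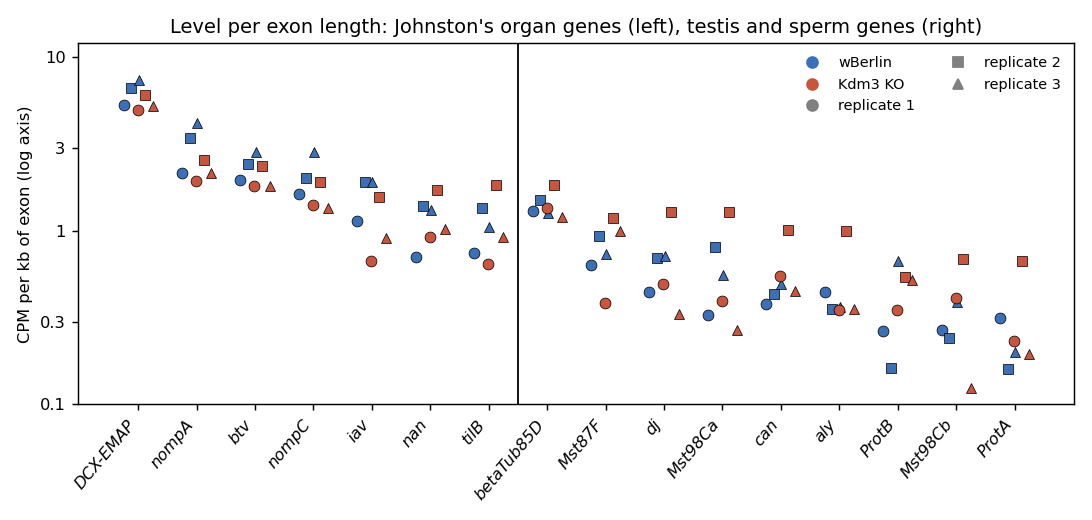
Level per kilobase of exon (y axis, log scale) in each library for the 7 genes, left of the line, and 9 testis and sperm genes, right of it, with colours and markers for genotype and replicate. DCX-EMAP stands highest at 4.97 to 7.39, and nan and tilB lie at the levels of betaTub85D and other testis genes, most of which are highest in Kdm3 KO replicate 2.

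The ratio of iav to nan, partners in 1 channel complex, was lower in each Kdm3 KO library than in each wBerlin library. In wBerlin there were 112, 183 and 146 iav counts and 56, 108 and 82 nan counts in replicates 1, 2 and 3, which is 2.0, 1.69 and 1.78 iav counts per nan count. In Kdm3 KO 59, 120 and 72 iav counts stood beside 66, 106 and 66 nan counts, a ratio of 0.894, 1.13 and 1.09. The mean ratio was 1.83 ± 0.158 in wBerlin and 1.04 ± 0.127 in Kdm3 KO (SD, n = 3), and the groups did not overlap. This ratio does not depend on library scaling, and it separated the genotypes with wBerlin replicate 1 and Kdm3 KO replicate 2 included. Exact Clopper-Pearson 95% intervals from counting alone were 1.44 to 2.81, 1.33 to 2.17 and 1.35 to 2.36 in wBerlin and 0.618 to 1.29, 0.865 to 1.48 and 0.770 to 1.55 in Kdm3 KO, so the interval of Kdm3 KO replicate 1 lay below all control intervals, while those of Kdm3 KO replicates 2 and 3 overlapped them. A two-sided exact permutation test gave p = 0.1 (n = 3 per group), the smallest it can give. The pair was chosen after its values were seen, among 21 pairs of which 4 had ratios without overlap between the groups, and the p adjusted over the 21 was 0.485 (exact permutation tests). The other 3 pairs were nan to nompA, iav to tilB and nompC to btv.

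The comparison with the third antennal segment asks whether genes of the neighbouring segment went the same way to the same extent. Orco (arm 3R, 5407183 to 5412406) was at 6.36, 26.5 and 37.0 CPM in wBerlin and at 3.66, 5.73 and 5.19 CPM in Kdm3 KO. Every knockout library lay below every control library, with a log2 fold change of −2.26 (SE 0.52, edgeR adjusted p = 0.0508, which misses the threshold). Each Johnston's organ gene overlapped between the genotypes, with log2 fold changes of −0.66 to 0.11 over the same 6 libraries. The number of Orco counts per member count was lower in Kdm3 KO for all 7. The drop was 1.24 on the log2 scale for iav, 1.44 for nompA and 1.49 for nompC. It was 1.67 for btv, 1.70 for DCX-EMAP, 1.96 for tilB and 2.06 for nan. The groups did not overlap in 6 of 7 ratios, where Orco counts per gene count were lower without overlap for 52.8% of 14064 tested genes. The exception was iav, where the log2 ratio of wBerlin replicate 1, 0.66, lay within the knockout range of 0.06 to 0.70. Two-sided exact permutation tests of the log2 ratio gave p = 0.1, the smallest possible with 3 against 3 libraries, for these 6 and p = 0.2 for iav (adjusted over the 7, 0.117 and 0.2). All 7 ratios share Orco, which by itself did not overlap between the groups, so the 7 tests are not separate results. In wBerlin replicate 1 the ratios were the lowest of the controls for all 7, nearer to the knockouts for some genes than for others. For nompC there were 0.566 Orco counts per nompC count there, against 1.90 and 1.89 in the other control libraries, while the knockouts had 0.377, 0.436 and 0.555. For nan the count ratio was 3.16 in wBerlin replicate 1 and 1.18 to 1.77 in the knockouts. Without wBerlin replicate 1 the drops ran from 1.76 for iav to 2.51 for nan, and those of btv and DCX-EMAP were 2.30 and 2.33.

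**Figure D4:**
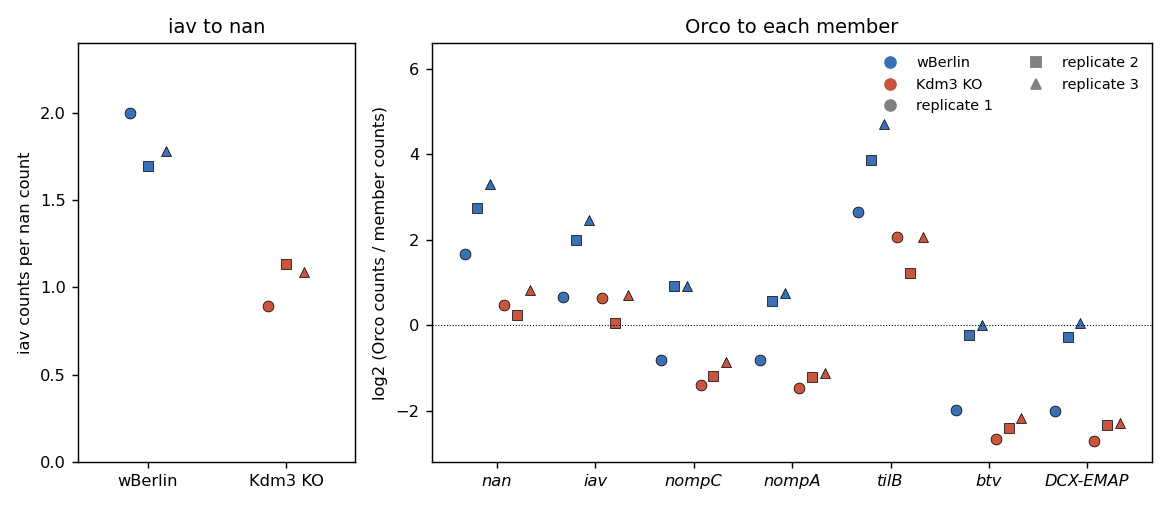
Ratios within each library, which are free of library scaling: iav counts per nan count (left, linear axis) and log2 of Orco counts per member count (right), wBerlin in blue and Kdm3 KO in red, with marker shape for the replicate. The iav to nan ratio is 1.69 to 2.0 in wBerlin and 0.894 to 1.13 in Kdm3 KO, and the Orco ratios of wBerlin replicate 1 are the lowest of the controls.

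Soluble proteins of the olfactory sensilla differed far more than either. Of 11 tested genes of this kind 7 were lower in Kdm3 KO (0.917% of all genes), with a median log2 fold change of −4.35, but 0 by limma voom. Their summed level was 367 and 480 CPM in wBerlin replicates 2 and 3, 89.2 CPM in wBerlin replicate 1 and 57.2 to 74.9 CPM in Kdm3 KO. The odorant-binding protein gene Obp83a was at 7.76, 64.6 and 99.9 CPM in wBerlin and 0.914, 1.74 and 1.02 CPM in Kdm3 KO (edgeR adjusted p = 0.00868). In wBerlin the mean of replicates 2 and 3 was a median of 9.09-fold above replicate 1 for these 11 genes and 1.61-fold for the 7 Johnston's organ genes. The receptor genes of the third segment, a list that holds Orco, lay on both sides of 0. Of 41 tested, 26 had log2 fold changes below 0 and 15 above. Over the 6 libraries their median of −0.09 was nearer to 0 than the −0.28 of the 7 Johnston's organ genes. Kdm3 KO replicate 2 was the highest knockout library for 39 of the 41. Without that library the order reversed, with medians of −0.60 for the receptor genes and −0.42 for the 7. In the 4 libraries the medians were −0.81 and −0.63. Over the 6 libraries 0 of the 41 were lower by edgeR, where 0.917% of all tested genes were. The 1 higher was Or82a (log2 fold change 1.63, edgeR adjusted p = 0.0340), where 2.15% of all tested genes were higher. In the 4 libraries 8 of 41 were lower (3.39% of all tested genes) and 1 was higher (4.32%). The Or82a call was lost with upper quartile scaling, no filter or limma voom (adjusted p 0.0505 to 0.0593) and without any 1 of the wBerlin libraries or Kdm3 KO replicate 1 (0.064 to 0.188). In bulk heads, fewer cells of a type and less RNA per cell cannot be told apart.

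Genes used by chordotonal cells beyond the 7 showed both patterns. The tubulin gene alphaTub85E (arm 3R, 9731221 to 9733250), known from support cells of chordotonal organs and from muscle, was at 4.38, 27.4 and 36.5 CPM in wBerlin and 1.63, 5.37 and 8.21 CPM in Kdm3 KO. It followed Orco more closely than the 7 in size, 7.30-fold between wBerlin replicates 2 and 3 and replicate 1, with a log2 fold change of −2.17 (SE 0.70, edgeR adjusted p = 0.163). It lies 0.21 Mb from Kdm3 on arm 3R. On the same arm Obp83a and Orco lie 3.54 and 4.1 Mb from Kdm3, and the axonemal dynein genes Dhc93AB and Dhc98D 11.5 and 19 Mb. None of the 7 is on arm 3R. How the allele was made is not stated, so sequence differences between the stocks, linked to the allele or on any arm, cannot be told apart from genotype. Of 12 tested genes for axonemal dyneins and their assembly 1 was higher, Dhc98D (2.15% of all tested genes), and 0 lower (0.917%), with a median log2 fold change of 0.005. The dynein heavy chain gene Dhc98D was at 10.3, 10.8 and 11.4 CPM in wBerlin and 24.2, 35.1 and 24.1 CPM in Kdm3 KO. It was 2.56-fold higher (log2 fold change 1.35, SE 0.16, edgeR adjusted p = 0.00266) without overlap, as 9.35% of all tested genes were.

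Named after their values were seen, Dhc93AB, an outer arm heavy chain gene, and CG9313, an outer arm intermediate chain gene, were low in that list. They were the 2 of 12 lower at an unadjusted p under 0.05 by edgeR (7.51% of all tested genes). Another intermediate chain gene of the list, Dnai2, had a log2 fold change of −0.19 (edgeR adjusted p = 0.896). The levels of Dhc93AB were 43.3, 120.7 and 118.5 CPM in wBerlin and 21.2, 36.5 and 47.7 CPM in Kdm3 KO (log2 fold change −1.42, SE 0.38, edgeR adjusted p = 0.0901). For CG9313 they were 2.66, 8.07 and 7.96 CPM in wBerlin and 2.15, 4.04 and 3.06 CPM in Kdm3 KO (log2 fold change −1.01, SE 0.40, edgeR adjusted p = 0.262). In both, wBerlin replicate 1 lay within the knockout range. Of the exonic bases of CG9313, 6.71% are shared with CG15651 on the other strand.

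Intraflagellar transport, BBSome and transition zone genes build cilia in chordotonal and olfactory neurons alike. Of 26 tested, 0 were higher and 0 lower by edgeR, and 3 were lower at an unadjusted p under 0.05 (7.51% of all tested genes). By DESeq2 1 was lower (2.91% of all tested genes) and by limma voom 0 (0.782%). The median log2 fold change was −0.24, with 21 values below 0 (43.6% of all tested genes). The BBSome gene BBS9 (3.84, 8.03 and 9.52 CPM in wBerlin, 3.50, 4.54 and 2.97 CPM in Kdm3 KO) and the transport gene Oseg4 (6.11, 8.76 and 7.74 against 3.86, 6.56 and 2.44 CPM) came nearest, at edgeR adjusted p of 0.164 and 0.238. In the 4 libraries 12 of 26 were lower, against 3.39% of all tested genes. Of 10 other mechanosensory and TRP channel genes 0 were called in either direction by edgeR, DESeq2 or limma voom, and 1 was lower at an unadjusted p under 0.05, pain, at 82.7 ± 6.14 and 68.0 ± 5.44 CPM (SD, n = 3, edgeR adjusted p = 0.194). The next by p was Trpm, at 129.2 ± 5.69 and 114.6 ± 4.28 CPM (SD, n = 3, edgeR adjusted p = 0.411).

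Regulators of chordotonal development were low or showed no call. The ciliary transcription factor gene Rfx was at 38.1, 39.5 and 42.9 CPM in wBerlin and 30.7, 31.1 and 34.4 CPM in Kdm3 KO. It was lower without overlap, as were 9.33% of all tested genes (log2 fold change −0.33, SE 0.09, edgeR adjusted p = 0.113). The proneural gene ato was at 0.934 to 1.75 CPM in wBerlin and 0.666 to 1.51 CPM in Kdm3 KO. Of these 4 genes 0 were called by edgeR (2.15% of all tested genes higher, 0.917% lower), limma voom or, for those it gave an adjusted p, DESeq2. At an unadjusted p under 0.05 there was 1 lower, Rfx, against 7.51% of all tested genes. Of 4 accessory genes 0 were called by the same tools and 2 were lower at an unadjusted p under 0.05 (7.51% of all tested genes), alphaTub85E and pio. The latter was at 360.9 ± 7.66 and 297.7 ± 31.4 CPM (SD, n = 3, edgeR adjusted p = 0.254).

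**Figure D5:**
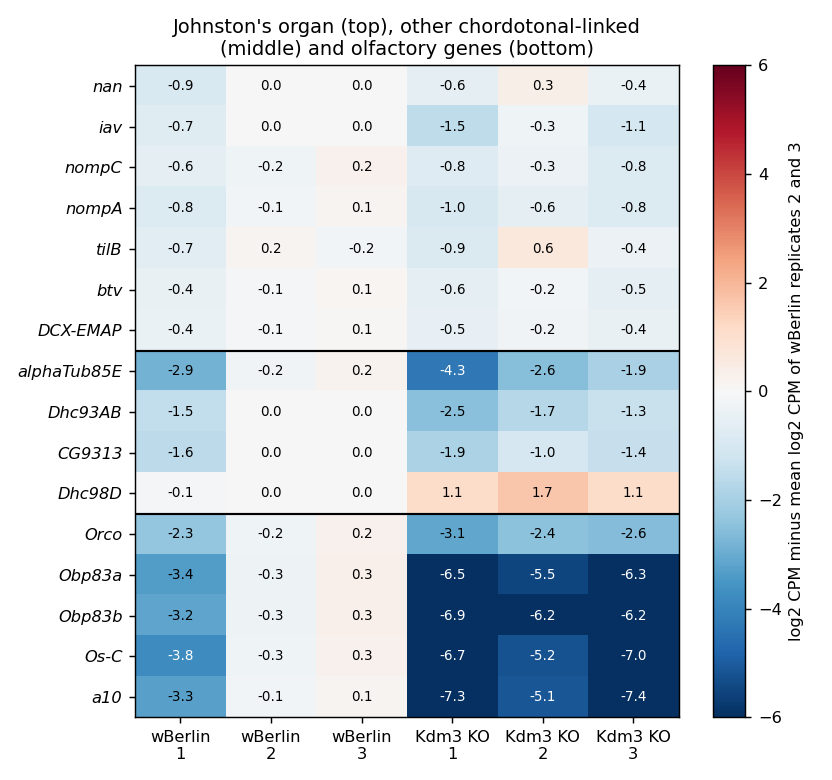
Log2 CPM in each library minus the mean log2 CPM of wBerlin replicates 2 and 3, with red higher and blue lower (colours saturate at 6 either way), for the 7 genes (top), alphaTub85E, Dhc93AB, CG9313 and Dhc98D (middle) and Orco with 4 soluble olfactory proteins (bottom). In the top block all 7 are lower in wBerlin replicate 1 and in Kdm3 KO replicates 1 and 3, with the lowest value in iav. By larger amounts, alphaTub85E, Orco and the soluble proteins are lower in wBerlin replicate 1 and in Kdm3 KO.

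Tissues outside the antenna also moved with the libraries. Summed levels of 10 flight and leg muscle genes were 3816 CPM in wBerlin replicate 1 and 8711 and 11658 CPM in replicates 2 and 3. They were 2739, 5101 and 4431 CPM in Kdm3 KO, with 0 of 10 genes called in either direction by edgeR or limma voom. By DESeq2 2 were lower (2.91% of all tested genes). At an unadjusted p under 0.05 by edgeR, 6 were lower and 2 higher (7.51% and 7.14% of all tested genes). Both Mf and Mlp84B, sarcomere genes, came nearest to a call (edgeR adjusted p 0.0924 and 0.127). The flight muscle gene TpnC4, not among those named by p, was at 87.8 CPM in Kdm3 KO replicate 2 and at 0.795 to 2.26 CPM in the other libraries. That library was the highest knockout library for 5 of the 10 muscle genes, 50% against 40.2% of all tested genes. Thorax and legs carry chordotonal organs of their own. Receptor genes of the maxillary palp, the other olfactory organ of the head, had a summed level of 12.4 to 14.7 CPM in wBerlin and 13.3 to 20.4 CPM in Kdm3 KO. Of 6 tested, 0 were called by edgeR, limma voom or, where it gave an adjusted p, DESeq2, and 0 had an unadjusted p under 0.05, with Or85d and Or85e nearest at edgeR adjusted p of 0.590 and 0.624. The testis genes nearest to a call were can and aly, at edgeR adjusted p of 0.501 and 0.688, with 0 of 7 called by edgeR, limma voom or, where it gave an adjusted p, DESeq2, and 0 at an unadjusted p under 0.05. The part of thoracic tissue and of the muscle difference in the values of the 7 genes was not tested.

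Out of 10125 other genes whose mean level was 2 CPM or more, those whose levels across the 6 libraries were most like the mean standardised level of the 7 were CG17834, f, Fhos, CG6938 and lncRNA:CR45993, with Pearson's r of 0.998, 0.997, 0.995, 0.987 and 0.985. These 5 were chosen by that likeness over 6 libraries, and all genes of a library share its depth and composition. The gene f (forked) encodes an actin-bundling protein of bristles, and Fhos encodes a formin. Levels of f were 15.2, 22.2 and 23.6 CPM in wBerlin and 13.6, 21.3 and 14.5 CPM in Kdm3 KO, with the same low wBerlin replicate 1 and high Kdm3 KO replicate 2 as in the 7. None of these 5 was called between the genotypes by edgeR (adjusted p 0.591 to 0.711).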

How the data were processed

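Raw read counts per gene were made by the authors and deposited as 1 table for 6 libraries. Per the submitters' processing notes the tools were STAR, SAMtools, HTSeq and DESeq2 and the build BDGP6, with versions, settings and strand use not stated. Symbols, positions and exonic lengths came from Ensembl release 115 (BDGP6.54), which matched 17626 of 17753 genes. Of 154 list entries 2 were matched by RefSeq synonyms and 2 stayed unmatched, and 5 genes are listed at 0 in every library.

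Differences were tested by edgeR 4.0.16 under R 4.3.3 (TMM, filterByExpr, quasi-likelihood test, two-sided, genotype as the only term). All 7 members passed the filter. The biological coefficient of variation was 18.2%. The fit was also run on simulated counts with a common dispersion and no deviating library, unlike these data, so that run gives no assurance for them. CPM values are scaled by TMM, and intervals cover counting error only where they come from counts. Counts of same-group libraries differed beyond sampling noise (chi-square over its degrees of freedom 14.2 to 55.8), so none was merged. Alternatives were RLE and upper quartile scaling, other filters, DESeq2 1.42.0, limma voom 3.58.1, the replicate block, leaving out each library, and 4 libraries. Ratios were tested with exact permutation tests in scipy 1.17.1. Standard errors came from the F statistic. Pair ratios, level classes and the iav to nan comparison were chosen after seeing the data. Named genes were the members, Orco and Kdm3, up to 4 called genes by p in each list (2 where none was called), and the 5 most similar genes. The members and lists were chosen with earlier results of these data known.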

Additional observations from a re-analysis of the deposited data

How the results depend on the processing

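RLE scaling, upper quartile scaling and the absence of a filter left 0 of 7 Johnston's organ genes called, as did DESeq2 (with no adjusted p for tilB), limma voom and the replicate block. With a mean of at least 5 CPM, nan, iav and tilB were not tested. The direction of nan and tilB depended on single libraries: without wBerlin replicate 1 they were at −0.20 and −0.13, without Kdm3 KO replicate 2 at −0.21 and −0.42, and tilB was at −0.0069 by limma voom. Their low counts limit the precision of nan, iav and tilB. The cause of the changes below was not tested.

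Without both libraries, 5 members were lower, with log2 fold changes of −0.47 for nan, −1.27 for iav, −0.81 for nompC, −0.90 for nompA, −0.63 for tilB, −0.55 for btv and −0.46 for DCX-EMAP. In that fit 606 genes were higher (4.32% of those tested) and 476 lower (3.39%). Among them 2 axonemal dynein, 12 intraflagellar transport, 1 accessory, 8 receptor, 10 soluble protein and 6 muscle genes were lower. Higher were 1 channel, 1 axonemal dynein and 1 receptor gene. Or85e and aly were at −0.11 and −0.028.

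Upper quartile scaling gave 1 accessory gene lower, 0 receptor genes higher and 212 of 14069 genes lower in all. No filter gave 1 regulator lower, 0 receptor genes higher and 1 lower, and 266 of 16462 lower in all. The 5 CPM minimum gave 1 regulator and 1 accessory gene lower and 0 receptor genes higher. Of 8601 genes it gave 473 higher and 274 lower in all. DESeq2 called 1 intraflagellar transport, 1 receptor and 2 muscle genes lower, with 515 higher (3.66%) and 409 lower (2.91%) in all. By limma voom 0 receptor genes were higher (1.99% of all tested genes) and 0 soluble protein genes lower (0.782%).

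Whether the replicate numbers pair the samples is not stated, and the values did not settle it. Same-numbered libraries had correlations of 0.342, 0.248 and −0.0495. Replicates 1 and 2 correlated best with their own number, and replicate 3 did not. Of 14069 tested genes the replicate block gave 417 higher and 362 lower. Those lower held 2 of 12 axonemal dynein, 1 of 4 accessory, 1 of 41 receptor, 9 of 11 soluble protein and 5 of 10 muscle genes. Higher were 1 axonemal dynein and 1 receptor gene.

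Leaving out each library in turn gave 0 to 1 members lower (nompA, without wBerlin replicate 1), with log2 fold changes of −0.21 to 0.28 for nan, −1.06 to −0.40 for iav, −0.69 to −0.27 for nompC, −0.83 to −0.38 for nompA, −0.42 to 0.40 for tilB, −0.46 to −0.18 for btv and −0.43 to −0.19 for DCX-EMAP. It gave 0 to 2 axonemal dynein, 0 to 2 intraflagellar transport, 0 to 1 channel, 0 to 1 regulator and 0 to 1 accessory genes lower. There were 0 to 1 receptor, 3 to 10 soluble protein and 0 to 4 muscle genes lower and 0 to 1 receptor genes higher. In all 181 to 574 were higher and 62 to 467 lower, of 14160 to 14532 tested genes. The values of aly were −0.14 to 0.80. Of 274 values for 20 other named genes, 236 kept direction and call, 13 lost the call, 22 gained it and 3 changed sign. The log2 change of Orco per member count ranged from −1.76 to −0.86 for iav, −2.30 to −1.30 for btv and −2.33 to −1.30 for DCX-EMAP, each lowest without wBerlin replicate 1.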
